A study of Mus musculus with 9 samples.

Results

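The 9 mRNA libraries of this study fall into 2 sets, which the column names of the count table call Set 1 and Set 3. The comparison took the 3 libraries of Set 3 against the 6 of Set 1, chosen by column name alone, so that all 9 libraries of the series entered it. All libraries came from mouse E14, an embryonic stem cell line, kept on fibronectin in 2i/LIF medium. This medium holds the MEK inhibitor PD0325901, the GSK3 inhibitor CHIR99021 and the cytokine LIF. The 3 groups were untreated cells, E14 transfected with luciferase siRNA as a control (siLuc) and E14 transfected with Stag3 siRNA (siStag3). Both siRNA treatments lasted 48 hours, with 50 pmol at seeding and again the next day. The labels give the genotype as wildtype for untreated cells and as Stag3 knockdown for siStag3 cells. Each group has 2 libraries of Set 1, from experiments 1 and 3, and 1 library of Set 3. The Set 3 library was from experiment 5 in untreated and siStag3 cells and from experiment 1 in siLuc cells. Neither term, set or experiment, is explained in the labels, so cultures, RNA preparation and sequencing cannot be told apart here. Since E14 is 1 cell line and the labels do not tie libraries to cultures, p-values measure only the spread between these samples.

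Naive embryonic stem cells held in 2i/LIF have low ERK signalling, because MEK is blocked, and keep much of their genome poorly methylated. Immediate early genes such as Fos and Egr1 respond within minutes to growth factors, fresh medium and handling, through ERK and the serum response factor. A group of germline genes with CpG-rich promoters, silenced by DNA methylation and by a Polycomb complex bound through the E-box factors MAX and MGA in other states, is partly expressed in naive cells. Library preparation and amplification also recover fragments unequally by base composition.

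Total counts ran from 29332436 to 44527534 per library, with no order by set. Levels are given as CPM, counts scaled to the size of each library. No pair of libraries within a group agreed within sampling noise (chi-square per degree of freedom of 4.69 or more), so none was taken for another deposited again. Whether libraries share a culture cannot be told from this. Stag3 (ENSMUSG00000036928), the siRNA target, was at 13.5 to 15.6 CPM in the siStag3 libraries and at 22.5 to 28.6 CPM in the others, as labelled. All 10 embryonic stem cell markers, Pou5f1 and Nanog among them, were tested, and their summed level was 6279 to 6560 CPM in Set 1 and 6146 to 6337 CPM in Set 3. Markers of other cell types were low. The 6 primitive endoderm genes tested, of 10 listed, summed to at most 77.2 CPM in Set 1 and 94.6 CPM in Set 3. Of the defining factors, Gata4 and Sox7 were under 1 CPM in every library, and Gata6 and Sox17 did not pass the filter on low counts. The fibroblast or feeder genes summed to at least 6.38 CPM in every Set 1 library and at most 5.45 CPM in every Set 3 library, with Col6a3, Lum and Twist1 under 1 CPM throughout. The part of such cells in the results below was not tested.

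The first question was how many genes differed between the sets once the group was taken into account. The set term of the edgeR model passed an adjusted p of 0.05 for 6076 of 14246 genes (42.7%), of which 3053 (21.4%) were higher and 3023 (21.2%) lower in Set 3. The changes were mostly small: called genes had a median absolute log2 fold change of 0.339, and 348 genes changed by at least 1, 96 of them up and 252 down. The direction was the same in all 3 groups for 2967 of the 3053 higher and 2947 of the 3023 lower genes. The fit that called these genes combines the same group differences, so this agreement largely follows from the selection and is no separate result. With the experiment number as a further factor 699 genes passed, 657 of which were among the 6076, and the set term then rests on the siLuc library of Set 3. The CPM of the sets did not overlap for 1888 genes (13.3%) higher and 1845 genes (13.0%) lower in Set 3. Scaling by total count only gave 61.7% of calls higher against 50.2% with the TMM factors used here, with a shift of 0.055 in the median log2 fold change of all genes. Across 14246 genes the set differences within single groups had a Spearman correlation of 0.602 between untreated and siLuc, 0.733 between untreated and siStag3 and 0.556 between siLuc and siStag3. These pairs share no library but share the base composition of the genes, described next.

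Genes with GC-rich transcripts were higher in Set 3 and genes with AT-rich transcripts lower. The Spearman correlation of the set difference with the GC content of the longest transcript was 0.471 across 14226 genes, which are not independent replicates, and 0.620 across the 5677 genes whose mean reached 5 log2 CPM. In the lowest of 20 equal bins, with 31.0% to 39.0% GC, the median log2 fold change was -0.28, and 39.3% of genes were called lower against 2.25% higher. The highest bin, with 59.6% to 72.8% GC, had a median of 0.26, with 45.9% called higher and 3.09% lower. The median GC content was 54.4% for genes called higher, 44.8% for genes called lower and 49.4% for the others. GC content of the coding sequence (0.440) and of the 3′ untranslated region (0.401) followed the set difference more closely than that of the 5′ untranslated region (0.0885).

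Transcript length had a weaker relation, with a Spearman correlation of -0.236 across 14226 genes and -0.374 across the 5677 genes of higher level. The shortest bin, up to 1071 bases, had a median log2 fold change of 0.13, and the longest, from 8473 bases, one of -0.23. Genes called higher had a median length of 2834 bases and genes called lower of 4385 bases. GC content and length were themselves correlated at -0.254. With genes divided into 5 classes by each feature, the median within the shortest class still moved from -0.20 in the lowest to 0.22 in the highest class of GC content, and within the longest class from -0.28 to 0.10. Within the highest class of GC content it moved from 0.22 in the shortest to 0.10 in the longest genes. Bins of GC content held 16.2% of the variance of the set difference across genes, bins of length 3.90% and both together 17.5%. For the 5677 genes of higher level these shares were 34.9%, 12.9% and 40.9%.

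**Figure D1:**
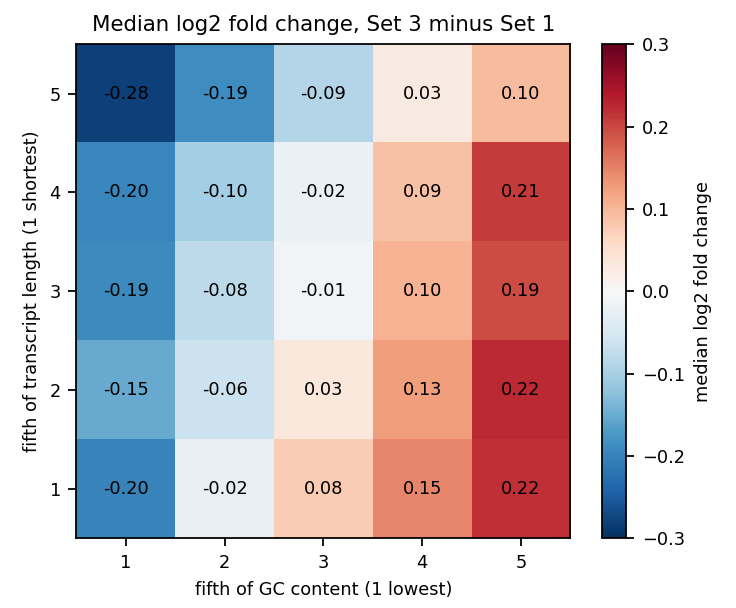
Median log2 fold change of Set 3 against Set 1 for genes divided into 5 classes of transcript GC content (horizontal axis) and 5 of transcript length (vertical axis), with the value printed in each cell and shown by colour. Medians run from -0.28 in long AT-rich genes to 0.22 in short GC-rich genes, and in each row they rise from left to right.

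The relation with GC content differed in size between the groups. Within siStag3 the Spearman correlation was 0.609, and the bin medians ran from -0.52 to 0.46. Within untreated cells it was 0.431, with medians from -0.30 to 0.20. In siLuc, whose Set 3 library was of experiment 1 and not 5, it was 0.155, with medians of -0.0084 in the lowest and 0.087 in the highest bin. Bins of GC content accordingly held 30.6% of the variance within siStag3, 13.7% within untreated and 2.02% within siLuc. Libraries inside Set 1 differed along GC content too. Experiment 3 minus experiment 1 had a correlation of -0.450 for untreated cells, of 0.146 for siLuc and of -0.185 for siStag3. A trend with GC content was therefore not particular to the sets, and in Set 3 experiment 5 and the trend cannot be told apart.

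**Figure D2:**
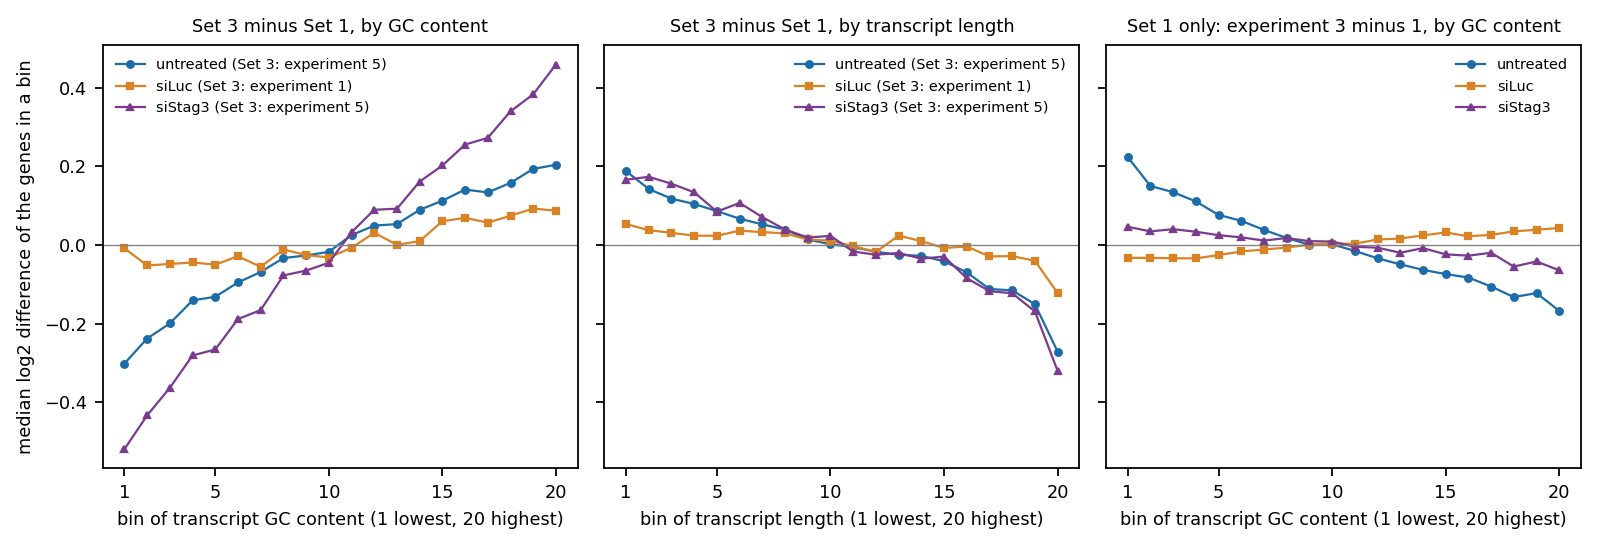
Median log2 difference of the genes in each of 20 bins (vertical axes) against the bin of transcript GC content or length (horizontal axes), with 1 line per group. The left and middle panels show Set 3 minus Set 1, where the siStag3 line climbs from -0.52 to 0.46 and the siLuc line stays between -0.06 and 0.09 along GC content; the right panel shows experiment 3 minus experiment 1 within Set 1, where the untreated line falls from 0.22 to -0.17.

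Stretches of coding sequence illustrate what transcripts at either end of this range look like. The genes were picked for their GC content, so their contrast is no result: they are the 2 largest rises of highest GC content and the 2 largest falls of lowest GC content among the 20 genes named below for their size of change, where the coding sequence was long enough. Of the 10 large falls, 6 had transcripts above the median of all genes (49.6% GC), so as a group they did not follow the trend. The 120 bases ending at base 420 of the longest annotated coding sequence are shown (GENCODE M21, GRCm38), with G and C in capitals. The stretches of Pdzd7 and Kifc2 have 61.7% and 65.0% GC, those of Olfr1459 and Stxbp5l 44.2% and 50.0%.
Pdzd7, higher in Set 3: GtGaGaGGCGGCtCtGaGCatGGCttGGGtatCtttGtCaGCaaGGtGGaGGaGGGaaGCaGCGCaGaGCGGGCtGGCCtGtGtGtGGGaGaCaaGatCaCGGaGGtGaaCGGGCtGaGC
Kifc2, higher in Set 3: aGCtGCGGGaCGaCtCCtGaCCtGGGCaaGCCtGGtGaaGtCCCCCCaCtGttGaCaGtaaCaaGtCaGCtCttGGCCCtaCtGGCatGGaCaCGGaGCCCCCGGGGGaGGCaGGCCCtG
Olfr1459, lower in Set 3: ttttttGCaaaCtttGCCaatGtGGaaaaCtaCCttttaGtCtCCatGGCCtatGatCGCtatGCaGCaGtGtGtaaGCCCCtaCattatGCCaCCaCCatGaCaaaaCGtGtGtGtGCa
Stxbp5l, lower in Set 3: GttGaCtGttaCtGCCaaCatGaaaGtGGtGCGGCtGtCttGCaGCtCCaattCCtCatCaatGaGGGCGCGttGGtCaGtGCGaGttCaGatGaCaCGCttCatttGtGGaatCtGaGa

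To see which differences followed composition, the median deviation along GC content and length was subtracted from each library before a further fit. The correlation with GC content was then -0.0091 and that with length 0.025. The number of calls did not fall: 6212 of 14226 genes passed (43.7%), 3061 (21.5%) higher and 3151 (22.1%) lower. Many were different genes. Of 6062 genes called before, 4149 (68.4%) were called again in the same direction, 1870 no longer passed and 43 passed in the opposite direction, while 2020 genes passed only with the correction. Large changes were kept more often: 326 of 346 genes (94.2%) with a change of at least 1 held their call, and 799 of 1744 (45.8%) with a change under 0.25. The standard deviation of the log2 fold change over all genes went from 0.397 to 0.362, and the biological coefficient of variation of the fit from 7.62% to 4.94%. Of 35 gene lists with at least 10 genes tested, 32 kept the sign of their median.

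**Figure D3:**
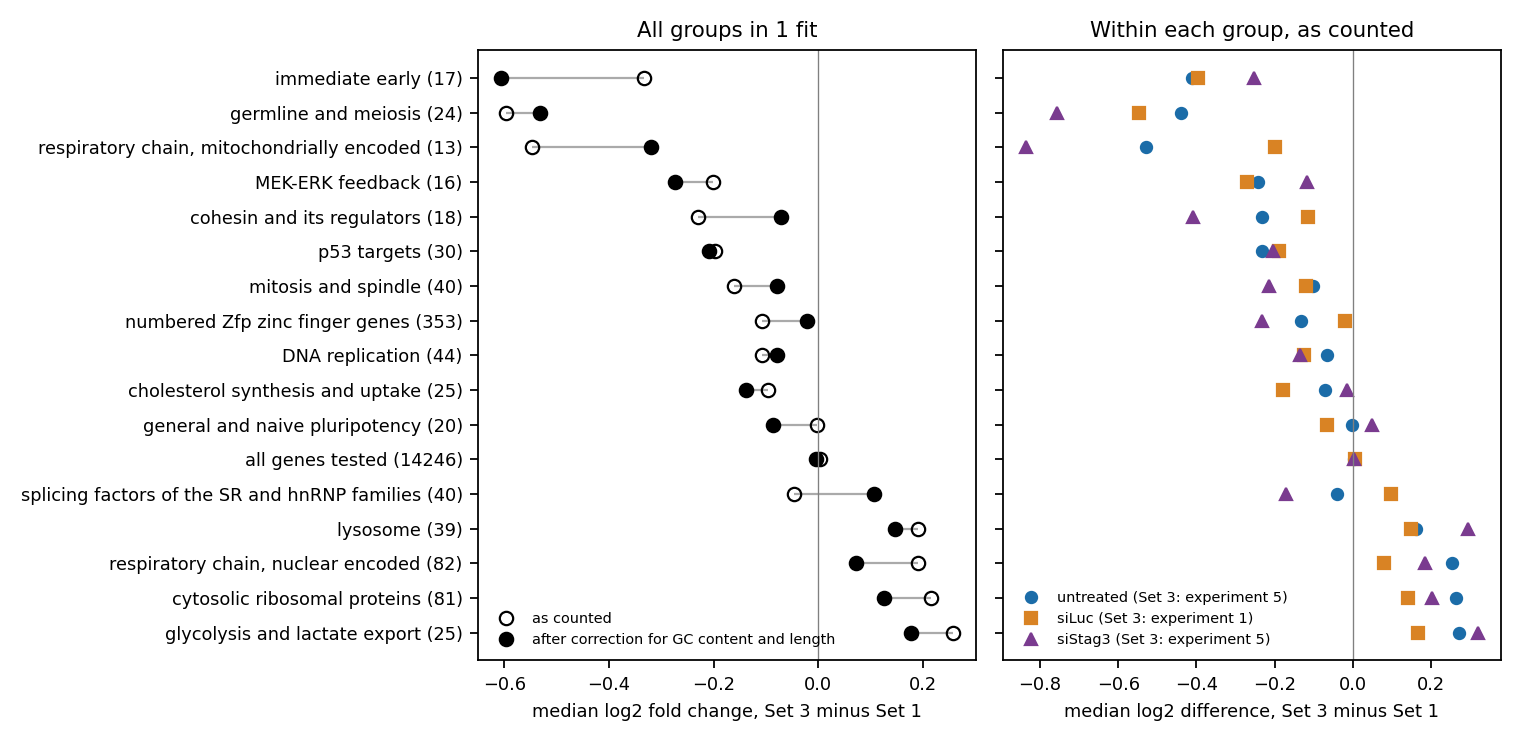
Median log2 fold change of Set 3 against Set 1 (horizontal axes) for 16 gene lists and for all genes tested, with the number of genes in brackets. The left panel joins the value as counted (open) to the value after correction for GC content and length (filled), and the right panel gives the median within each group. The immediate early and germline lists lie left of 0 before and after correction and in all 3 groups, while the splicing list changes side.

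Immediate early genes were lower in Set 3, and by more after correction for GC content and length. Of 17 genes tested, 11 fell and 0 rose, where 21.2% of all genes fell and 21.4% rose, with a median log2 fold change of -0.33 beside 0.0025 for all genes. After correction 13 fell and 1 rose, with a median of -0.61; their median GC content was 54.1%, on the side where Set 3 was otherwise higher. The median within groups was -0.41 in untreated, -0.40 in siLuc and -0.25 in siStag3, and 13, 13 and 12 of the 17 members were lower. The summed level was 471 to 637 CPM in the Set 1 libraries and 339 to 385 CPM in the Set 3 libraries.

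Egr1, a zinc finger factor induced through the serum response factor, was at 44.4, 26.9 and 25.8 CPM in the untreated, siLuc and siStag3 libraries of Set 3. The 6 Set 1 libraries held 92.8 to 173 CPM (median 121). Every Set 3 library was lower than every Set 1 library, with the fit below 0 (log2 fold change -2.02, SE 0.0866, edgeR adjusted p 2.59e-08). Fos, a subunit of the AP-1 transcription factor, was at 11.4, 11.8 and 8.48 CPM in Set 3 in the same order. In Set 1 it was at 29.3 to 49.4 CPM (median 38.2), so that the sets did not overlap (log2 fold change -1.88, SE 0.144, edgeR adjusted p 1.97e-05). Its relative Fosb was at 1.41, 1.26 and 1.12 CPM in Set 3 and 3.57 to 10.9 CPM (median 5.83) in Set 1, again without overlap (log2 fold change -2.32, SE 0.258, edgeR adjusted p 0.000122). Ccn1, a secreted matrix protein and target of YAP and the serum response factor, chosen after its values were seen, fell from a range of 23.2 to 34.2 CPM (median 25.9) to 13.5, 9.39 and 8.38 CPM (log2 fold change -1.41, SE 0.0750, edgeR adjusted p 5.1e-08). Junb, another AP-1 member chosen in the same way, fell by less (-0.58, edgeR adjusted p 6.35e-05), and without overlap. After correction the log2 fold changes were -2.19 for Egr1, -1.98 for Fos, -2.45 for Fosb, -1.53 for Ccn1 and -0.85 for Junb. In siLuc, where both sets have a library numbered experiment 1, Egr1 was at 92.8 CPM in Set 1 and 26.9 CPM in Set 3 for that number; the labels do not say that it marks the same experiment. Nr4a1, Ier3 and Ier5, with log2 fold changes of 0.18, 0.18 and 0.098, did not pass the test, nor did Jund, Dusp1 and Klf6. Of 22 YAP and serum response factor targets tested, among which Ccn1 had the lowest value, 5 rose and 6 fell (median 0.016). Their values reached up to 1.13, and the shares are near the 21.4% and 21.2% of all genes. After correction 5 rose and 10 fell (median -0.12).

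The promoters of Fos and Fosb are shown because these genes fell together. The 250 bases before the RefSeq start (GRCm38.p6) are given 5′ to 3′ on the strand of the gene, with each cAMP response half-site (TGACG or its reverse complement CGTCA) in capitals; no CArG box, the site of the serum response factor, was found in these windows. Fos lies at chr12:85473640-85473889, plus strand, and Fosb at chr7:19310046-19310295, minus strand.
Fos: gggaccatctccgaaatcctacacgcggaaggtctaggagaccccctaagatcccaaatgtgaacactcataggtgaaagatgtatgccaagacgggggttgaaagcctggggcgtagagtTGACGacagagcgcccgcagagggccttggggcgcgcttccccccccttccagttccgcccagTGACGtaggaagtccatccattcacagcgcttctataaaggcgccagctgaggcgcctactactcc
Fosb: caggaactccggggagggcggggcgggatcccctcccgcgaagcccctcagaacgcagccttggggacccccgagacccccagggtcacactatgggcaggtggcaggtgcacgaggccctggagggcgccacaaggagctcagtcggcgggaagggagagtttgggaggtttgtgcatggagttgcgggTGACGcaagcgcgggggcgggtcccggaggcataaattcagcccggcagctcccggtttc
Both strands were searched. The half-site was found 2 times in the Fos window and 1 time in the Fosb window. Over 32851 promoter windows of this length 17.8% held it, and 11 of 19 windows of the 15 immediate early genes with an entry did. A CArG box was in 1.47% of all windows and in 5 of the 19, which belong to Egr2 and Zfp36. A match is a run of letters and was not tested as a site.

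Genes of the feedback on MEK and ERK, which blunt or read out this pathway, were lower in part. Of 16 tested, 8 fell and 1 rose, beside 21.2% and 21.4% of all genes, with a median of -0.20. After correction the median was -0.27, and 8 fell and 1 rose again. The list shares Egr1 and Ier3 with the immediate early list, and Etv4 with the formative and primed list below. Etv4, an ETS factor driven by ERK, was at 14.9, 15.8 and 19.5 CPM in Set 3 and at 32.0 to 42.5 CPM (median 37.2) in Set 1 (log2 fold change -1.14, SE 0.0611, edgeR adjusted p 5.1e-08). Its paralog Etv1, chosen after its values were seen, fell by 1.07 on the log2 scale, from a range of 43.0 to 55.7 CPM (median 50.8) to 20.9, 27.6 and 22.4 CPM. Neither overlapped between the sets, and the corrected log2 fold changes were -1.42 and -0.79. The phosphatase gene Dusp6, also chosen afterwards, fell by 0.41. Its siLuc library of Set 3, at 8.44 CPM, was above the lowest library of Set 1, an untreated one at 7.89 CPM. The sets thus overlapped over all groups but not within any group. Spry2, an inhibitor of receptor signalling, went the other way and rose by 0.21 (edgeR adjusted p 0.00647).

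Germline and meiosis genes formed the other list with large falls. Of 24 tested, 18 fell and 2 rose, beside 21.2% and 21.4% of all genes, with a median log2 fold change of -0.60; after correction 19 fell and 2 rose, with a median of -0.53. The median GC content of these genes was 44.4%, on the side where Set 3 was lower overall. The median within groups was -0.44 in untreated, -0.55 in siLuc and -0.76 in siStag3, and in siLuc, where the GC trend was weak, 20 of 24 members were lower. Their summed level was 392 to 469 CPM in Set 1 and 259 to 320 CPM in Set 3. In bulk RNA, fewer expressing cells and less RNA per cell cannot be told apart.

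Stk31, a kinase-like Tudor domain gene of germ cells, was at 23.9, 26.3 and 16.3 CPM in Set 3 and 51.0 to 68.4 CPM (median 56.8) in Set 1, without overlap (log2 fold change -1.43, SE 0.0945, edgeR adjusted p 7.94e-07). The meiotic cohesin subunit Smc1b was at 6.09, 7.43 and 5.84 CPM in Set 3. In Set 1 it was at 14.1 to 19.4 CPM (median 16.4), above every Set 3 library (log2 fold change -1.37, SE 0.0809, edgeR adjusted p 1.64e-07). Dazl, an RNA-binding protein needed for germ cell development, fell from a range of 38.9 to 53.2 CPM (median 47.3) to 20.3, 23.7 and 14.3 CPM (log2 fold change -1.29, SE 0.146, edgeR adjusted p 0.00022). Hormad1, a protein of the meiotic chromosome axis, fell from a range of 30.8 to 54.0 CPM (median 50.3) to 17.4, 29.8 and 15.9 CPM (log2 fold change -1.18, SE 0.204, edgeR adjusted p 0.00425). Dazl and Hormad1 were chosen after their values were seen, and none of these 4 genes overlapped between the sets. The corrected log2 fold changes were -1.22 for Stk31, -1.17 for Smc1b, -1.02 for Dazl and -0.93 for Hormad1. The 2 members that rose are both cohesin subunits of meiosis. Rec8, the meiotic kleisin, was at 18.6 to 23.9 CPM in Set 3 and 11.4 to 17.3 CPM (median 13.3) in Set 1, without overlap (log2 fold change 0.55, SE 0.0695, edgeR adjusted p 5.94e-05). Stag3 rose by 0.20 (SE 0.0608, edgeR adjusted p 0.018), and by 0.24 after correction (edgeR adjusted p 0.000762). Without the untreated Set 3 library the value as counted was 0.18 with an adjusted p of 0.114. The call as counted, though little of the value, thus depended on that library.

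**Figure D4:**
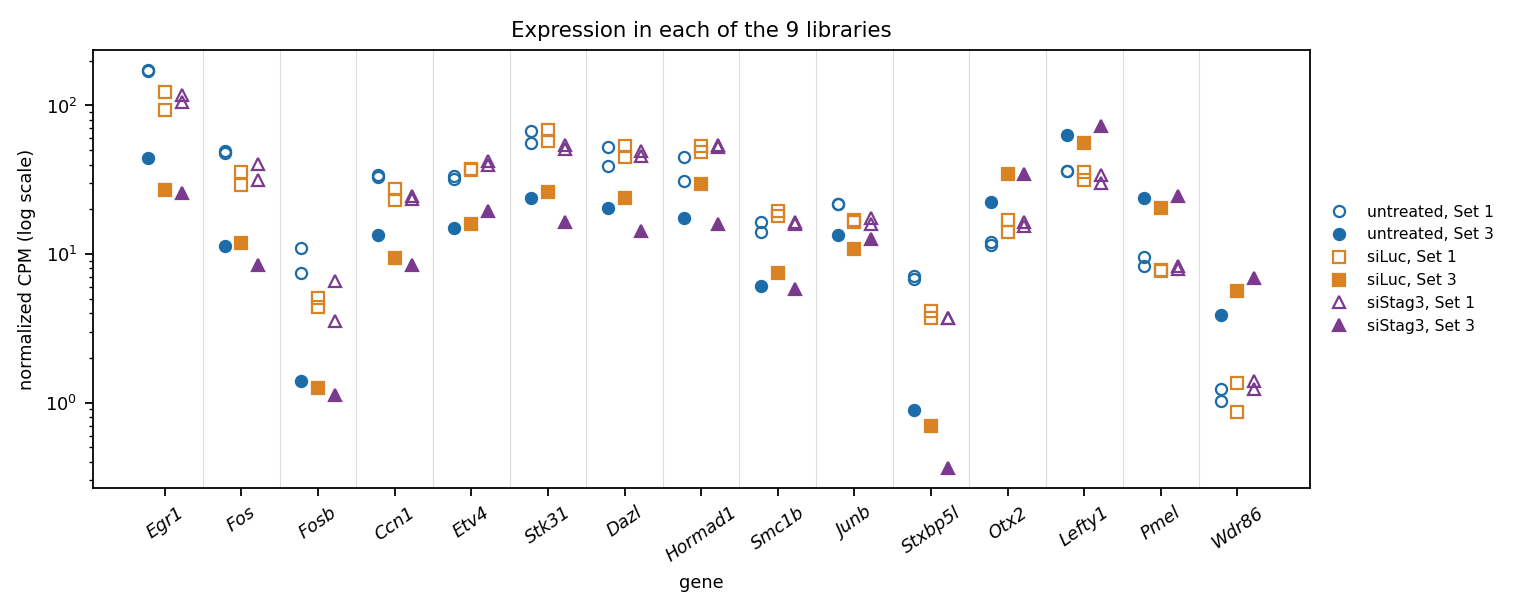
Normalized CPM (vertical axis, log scale) of 15 genes in each of the 9 libraries, with Set 1 as open and Set 3 as filled symbols and a colour and shape per group. For Egr1 the Set 3 libraries lie between 25.8 and 44.4 CPM and the Set 1 libraries between 92.8 and 173 CPM. In none of the 15 genes do the sets overlap, which is no result. Several were named by a rule that asks for no overlap, and others were chosen after their values were seen.

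Promoters of Stk31 and Hormad1 are shown as those of the germline genes with the largest falls among genes of at least 1 log2 CPM that hold the E-box CACGTG, the sequence bound by MAX and its partners. The E-box, which reads the same on both strands, is in capitals. Stk31 lies at chr6:49395289-49395538, plus strand, and Hormad1 at chr3:95559427-95559676, plus strand, both in GRCm38.p6.
Stk31: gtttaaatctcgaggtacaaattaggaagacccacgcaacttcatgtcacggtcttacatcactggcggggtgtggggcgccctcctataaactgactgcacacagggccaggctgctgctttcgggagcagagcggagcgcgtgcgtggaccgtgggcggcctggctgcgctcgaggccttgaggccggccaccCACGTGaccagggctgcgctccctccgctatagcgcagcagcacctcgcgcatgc
Hormad1: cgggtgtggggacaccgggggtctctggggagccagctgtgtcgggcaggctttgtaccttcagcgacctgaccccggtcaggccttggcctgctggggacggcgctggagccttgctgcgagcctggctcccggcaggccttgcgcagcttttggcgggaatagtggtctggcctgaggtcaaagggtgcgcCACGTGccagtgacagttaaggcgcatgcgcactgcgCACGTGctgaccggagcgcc
These windows hold 21 and 19 CpG dinucleotides and 1 and 2 E-boxes, while the transcripts have 40.1% and 35.8% GC. The E-box was in 6.02% of 32851 windows and in 13 of the 25 windows of germline list genes, which belong to 11 of 22 genes with an entry. Stag3, Syce2 and Slc25a31, which did not fall, are among the 11. Genes with several starts have several windows.

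Pluripotency genes moved little as counted and leaned lower after correction. Of 20 general and naive pluripotency genes, 3 rose and 4 fell, with a median of -0.00289, beside 21.4% and 21.2% of all genes. After correction 2 rose and 9 fell, with a median of -0.09, beside 21.5% and 22.1% of all genes. Dppa2, a DNA-binding protein of early embryonic cells, fell from a range of 69.3 to 80.0 CPM (median 74.4) to 48.9, 56.5 and 51.0 CPM (log2 fold change -0.52, SE 0.0554, edgeR adjusted p 1.78e-05). Tfcp2l1, a naive transcription factor with a long transcript, fell by 0.29, and by 0.08 after correction (edgeR adjusted p 0.0464). Dppa5a, an RNA-binding protein of stem cells, rose by 0.31, with 1245, 1094 and 1246 CPM in Set 3 and 889.7 to 1067 CPM (median 962) in Set 1. Klf2, a Krüppel-like factor with 61.6% GC, had a log2 fold change of 0.28 as counted (edgeR adjusted p 0.00154) and of 0.00586 after correction (adjusted p 0.912).

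Among 19 genes of the formative and primed state, 5 rose and 4 fell, with a median of -0.09; without the untreated Set 3 library 3 rose and 2 fell, and without that of siStag3 3 rose and 4 fell. Both shares are near those of all genes (21.4% higher and 21.2% lower), and after correction 3 rose and 5 fell. The largest change was the fall of Etv4 (log2 fold change -1.14), given above, which this list shares with that of MEK and ERK feedback. The largest rise was in Otx2, a homeobox factor of the exit from naive pluripotency, with 22.5, 34.5 and 34.7 CPM in Set 3 and 11.6 to 17.0 CPM (median 14.8) in Set 1 (log2 fold change 1.07, SE 0.0705, edgeR adjusted p 3.76e-07). Its transcript has 46.8% GC, and its corrected value was 1.08. Lefty1, a secreted inhibitor of Nodal, was at 63.1, 56.1 and 73.0 CPM in Set 3. In Set 1 it was at 30.3 to 36.3 CPM (median 34.9), below every Set 3 library (log2 fold change 0.91, SE 0.0771, edgeR adjusted p 2.92e-06). Lefty2, a related Nodal inhibitor, chosen after its values were seen, rose by 0.65 (edgeR adjusted p 7.97e-06), and by 0.57 after correction. Among 18 Wnt and beta-catenin targets 6 rose and 4 fell, against 3 and 1 without the untreated and 7 and 2 without the siLuc library of Set 3, and 4 each after correction. Notum, a secreted Wnt deacylase, rose by 0.79, from a range of 44.1 to 65.6 CPM (median 55.9) to 99.8, 72.8 and 114 CPM, and by 0.53 after correction.

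Genes of cytosolic ribosomal proteins and of respiration shifted by small amounts in many members. Of 81 cytosolic ribosomal protein genes 68 rose and 0 fell, beside 21.4% and 21.2% of all genes, with a median of 0.22. With correction 49 rose and 1 fell, with a median of 0.13. Their transcripts were short, with a median of 1094 bases, and near the middle in GC content (51.0%). The summed level was 59947 to 65461 CPM in Set 1 and 69081 to 75598 CPM in Set 3. Without the untreated Set 3 library 33 rose and 1 fell as counted. Rpl12, of the large subunit, rose from a range of 64.8 to 94.2 CPM (median 75.1) to 106, 107 and 114 CPM (log2 fold change 0.51, SE 0.0818, edgeR adjusted p 0.00048). Rps27, of the small subunit, rose by 0.92, but was at 8.61 CPM in the siStag3 library of Set 3 against 8.38 CPM in the highest of Set 1, and had an adjusted p of 0.055 after correction. Ribosomal protein genes have near-identical copies between which counting can split reads, so single values are uncertain. Translation initiation factors did not share the rise: of 56 tested, 9 rose and 16 fell (median -0.02). After correction 10 rose and 14 fell, beside 21.5% and 22.1% of all genes.

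Nuclear genes of the respiratory chain followed the same direction, with 49 of 82 higher and 3 lower (median 0.19), and 34 higher and 3 lower after correction (median 0.07). Without the untreated Set 3 library 23 rose and 3 fell. The counts of this paragraph stand beside 21.4% of all genes higher and 21.2% lower. After correction these shares of all genes were 21.5% and 22.1%. Cox6b2, a subunit of cytochrome oxidase, rose by 0.51 from a range of 22.3 to 31.7 CPM (median 24.1) to 38.7, 34.4 and 36.8 CPM, and Atp5d, of the ATP synthase, by 0.39. The corrected values were 0.29 and 0.12. Of 78 mitochondrial ribosomal protein genes 18 rose and 1 fell, against 5 and 1 without the untreated and 9 and 1 without the siStag3 library of Set 3. The rises are near the 21.4% of all genes called higher, and after correction 22 rose and 11 fell, with a median of 0.016. The 13 respiratory genes encoded in mitochondria went the other way: 0 rose and 7 fell, with a median of -0.55 and of -0.32 after correction. These transcripts have a median GC content of 37.1%, and the median was -0.53 in untreated, -0.20 in siLuc and -0.84 in siStag3. mt-Nd4l, of complex I, was at 423, 664 and 549.6 CPM in Set 3 and 671 to 939 CPM (median 900.0) in Set 1 (log2 fold change -0.64, SE 0.0566, edgeR adjusted p 3.77e-06). For mt-Nd2, of the same complex, the siLuc library of Set 3 was at 2797 CPM, above 2338 CPM in the lowest library of Set 1, which was untreated. The sets thus overlapped over all groups but not within any group (log2 fold change -0.78, SE 0.142, edgeR adjusted p 0.0039). All mitochondrial genes together took 3.48% to 5.98% of counts in Set 3 and 4.41% to 6.78% in Set 1.

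Glycolysis and lactate export genes were higher in Set 3, with 18 of 25 called higher and 2 lower, beside 21.4% and 21.2% of all genes (median 0.26), and 15 and 2 after correction (median 0.18). The median within groups was 0.27 in untreated, 0.17 in siLuc and 0.32 in siStag3. The lactate exporter Slc16a3 was at 1.47, 6.08 and 7.49 CPM in Set 3. In Set 1 it was at 0.533 and 0.473 CPM in untreated cells and at 2.05 to 3.62 CPM in transfected cells, so the sets overlapped over all groups but not within any group (log2 fold change 1.33, SE 0.167, edgeR adjusted p 5.94e-05). The enolase Eno3 rose from a range of 4.05 to 5.81 CPM (median 4.62) to 7.69, 7.66 and 8.91 CPM (log2 fold change 0.74, SE 0.108, edgeR adjusted p 0.000165). Other hypoxia targets were divided, with 6 of 23 higher and 6 lower, against 4 and 5 without the untreated and 3 and 5 without the siStag3 library of Set 3; these shares are near the 21.4% and 21.2% of all genes. The mitophagy receptor Bnip3 and the collagen hydroxylase P4ha1 rose by 0.48 and 0.49. The growth factor Vegfa fell by 0.62, and the lysyl hydroxylase Plod2 by 0.48. All 4 kept their direction and call after correction.

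Lysosomal genes were higher in 21 of 39 and lower in 1 (median 0.19), beside 21.4% and 21.2% of all genes. After correction 21 were higher and 3 lower (median 0.15), beside 21.5% and 22.1% of all genes. The median GC content of the list was 51.2%. Lipa, the lysosomal acid lipase, has 42.2% GC and rose all the same, from a range of 3.04 to 3.81 CPM (median 3.29) to 4.77, 6.08 and 4.79 CPM (log2 fold change 0.63, SE 0.0952, edgeR adjusted p 0.000217). Neu1, a sialidase, rose by 0.59, from a range of 11.8 to 15.6 CPM (median 13.1) to 20.3, 19.2 and 21.6 CPM. The 1 member that fell, Atp6v1h of the proton pump, has 37.6% GC and a log2 fold change of -0.25 as counted and of 0.07 after correction (edgeR adjusted p 0.581). Cholesterol synthesis and uptake genes were mixed as counted, with 5 of 25 higher and 9 lower, and leaned lower after correction, with 2 higher and 14 lower (median -0.14). Without the untreated or the siStag3 library of Set 3, 1 member rose as counted, and 10 or 9 fell. Hsd17b7, a reductase of the pathway, fell by 0.62, and Tm7sf2, another, rose by 0.49.

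Genes of cell division were lower in Set 3 in part, where 21.2% of all genes fell and 21.4% rose (22.1% and 21.5% after correction). Of 40 mitosis and spindle genes 20 fell and 3 rose (median -0.16), and of 44 DNA replication genes 18 fell and 3 rose (median -0.11). After correction 20 fell and 4 rose among the first (median -0.08), and 21 fell and 2 rose among the second (median -0.08). Knl1 and Cenpf, large kinetochore proteins with transcripts of 37.7% and 43.3% GC, fell by 0.66 and 0.53 as counted and by 0.29 and 0.21 after correction. Aurkb, a mitotic kinase, and Cenpa, the centromeric histone, rose by 0.22 and 0.20 as counted and by 0.13 and 0.23 after correction. Pola1, the catalytic subunit of DNA polymerase alpha, fell from a range of 194 to 237 CPM (median 225) to 151, 168 and 143 CPM, and its partner subunit Pola2 rose from a range of 80.2 to 93.3 CPM (median 82.4) to 106, 94.6 and 107 CPM. Neither pair of ranges overlapped, and after correction the log2 fold changes were -0.27 and 0.29. Orc2, of the origin recognition complex, fell by 0.38, and by 0.24 after correction. Among 30 p53 targets 14 fell and 2 rose (median -0.20), and 17 fell and 1 rose after correction (median -0.21). The list's median GC content was 49.3%, close to that of all genes (49.6%). Its median within groups was -0.23 in untreated, -0.19 in siLuc and -0.21 in siStag3. Plk2, a polo-like kinase induced by p53, fell from a range of 63.0 to 78.1 CPM (median 70.8) to 41.1, 51.4 and 39.7 CPM (log2 fold change -0.68, SE 0.0614, edgeR adjusted p 4.6e-06).

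Cohesin, splicing and zinc finger lists, whose transcripts are AT-rich, had medians nearer 0, or past it, after correction. Their counts stand beside 21.4% of all genes higher and 21.2% lower as counted, and 21.5% and 22.1% after correction. Of 18 cohesin genes and regulators, with a median GC content of 42.7%, 11 fell and 3 rose as counted (median -0.23) and 8 fell and 4 rose after correction (median -0.07). The list shares Smc1b, Rec8 and Stag3 with the germline and meiosis list. Smc1b had its lowest and Rec8 its highest value. Stag1, a subunit of somatic cohesin, fell from a range of 155 to 173 CPM (median 171) to 108, 122 and 99.4 CPM (log2 fold change -0.62, SE 0.0575, edgeR adjusted p 5.9e-06), and by 0.36 after correction. Splicing factors of the SR and hnRNP families, with a median GC content of 43.3%, had a median that changed sign. Of 40, 9 rose and 6 fell as counted (median -0.05), and 21 rose and 7 fell after correction (median 0.11). The share of rises as counted is near that of all genes. As counted the splits were 6 and 2 without the untreated, 5 and 12 without the siLuc and 8 and 0 without the siStag3 library of Set 3. Clk2, a kinase of SR proteins, rose under both, by 0.63 and 0.47. Of 353 numbered Zfp zinc finger genes, at 43.7% GC, 111 fell and 41 rose as counted, against 89 and 68 after correction. As counted, 60 fell and 28 rose without the untreated and 65 fell and 26 rose without the siStag3 library of Set 3. Zfp971 fell by 0.95 and Zfp692 rose by 0.81, but members of this family share sequence, so single values are uncertain. Of 8 Y-linked genes 5 fell and 0 rose, at a median GC content of 38.5%. Ddx3y, a Y-linked RNA helicase, fell by 0.73, and by 0.42 after correction. Among 24 imprinted genes 5 rose and 8 fell, with 3 rises without the untreated or the siStag3 library of Set 3. The share of rises is near the 21.4% of all genes, and after correction 6 rose and 7 fell. Plagl1, a zinc finger factor, fell from a range of 92.7 to 126 CPM (median 120.1) to 51.1, 84.6 and 41.3 CPM (log2 fold change -1.03, SE 0.205, edgeR adjusted p 0.00949), and Zdbf2 by 0.75.

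Further lists held smaller or divided changes. Among all genes 21.4% were higher and 21.2% lower as counted, and 21.5% and 22.1% after correction. Of 32 genes of the integrated stress response and ATF4 targets, which answer amino acid shortage and other stress, 12 rose and 2 fell as counted, and 11 rose and 8 fell after correction. Without the untreated Set 3 library 5 of them rose as counted, and without that of siStag3 7. Of 24 ER chaperones and unfolded protein response genes 7 rose and 2 fell, and after correction 12 rose and 0 fell. Among 36 Polycomb and MLL family chromatin regulators 6 rose and 14 fell, against 4 and 15 after correction. Among 16 LIF and STAT3 targets 2 rose and 4 fell, against 3 and 9 after correction and 0 and 3 without the siStag3 library of Set 3. Of 23 collagens 1 rose and 8 fell, against 3 or 4 falls without any 1 Set 3 library.

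The largest single rises and falls lay outside most of these lists. Wdr86, a WD-repeat protein, rose from a range of 0.859 to 1.40 CPM (median 1.23) to 3.88, 5.67 and 6.86 CPM (log2 fold change 2.17, SE 0.150, edgeR adjusted p 5.2e-07). Pmel, the fibril protein of melanosomes, was at 22.9 ± 2.05 CPM in Set 3 (SD, n = 3) and 8.27 ± 0.651 CPM in Set 1 (SD, n = 6) (log2 fold change 1.47, SE 0.0706, edgeR adjusted p 2.59e-08). The other large rises, from 1.19 to 1.52, were Gm49396, the PDZ scaffold Pdzd7, the hydrolase Abhd14b, the kinesin Kifc2, 1190005I06Rik, Arhgef25, the keratin Krt42 and the LIM homeobox factor Lmx1b. Their transcripts had 53.3% to 64.9% GC, and their corrected values were 0.97 to 1.41. Stxbp5l, a syntaxin-binding protein of the tomosyn family, had the largest fall among genes of at least 1 log2 CPM whose sets did not overlap, from a range of 3.72 to 7.12 CPM (median 3.92) to 0.888, 0.693 and 0.363 CPM (log2 fold change -2.91, SE 0.155, edgeR adjusted p 5.1e-08), and a corrected value of -2.78. The GC content of the 10 falls ran from 38.8% (Gm9732) to 57.3% (Egr1). Next to Fosb, Egr1 and Fos, the large falls were Pwwp4b (-2.22), the myosin Myo1f (-1.87), the ephrin receptor Ephb1 (-1.81), the protease inhibitor Serpina3m (-1.81), the olfactory receptor Olfr1459 (-1.78) and Gm9732 (-1.77). Olfr1459 was at 50.0, 36.9 and 34.8 CPM in Set 3 and 109.9 to 174 CPM (median 142) in Set 1, and its value went to -1.38 with correction. Serpina3m and Olfr1459 belong to multigene families, so their counts are uncertain. After correction the potassium channel Kcna2 (1.36, 45.8% GC) and the fibrillin Fbn2 (1.27) joined the 5 largest rises.

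The set difference was also compared between the 3 groups. The interaction of set and group passed for 6 of 14246 genes (0.0421%) in the edgeR test, with 2267 genes (15.9%) at an unadjusted p under 0.05, and for 46 of 14226 genes (0.323%) after correction for GC content and length. The genes with the smallest p-values were Gm2026, Nnt (ENSMUSG00000025453), Gm15023, Gm21985 and A630089N07Rik. Gm2026 was at 0.990 CPM in the siStag3 library of Set 3 and at 5.54 and 6.65 CPM in the siStag3 libraries of Set 1, while the siLuc library of Set 3, at 7.91 CPM, was above those of Set 1 (5.22 and 5.70 CPM). Nnt, a mitochondrial proton-pumping transhydrogenase listed under 2 gene IDs, was at 5.44 CPM in the untreated library of Set 3 against 11.7 and 13.8 CPM in Set 1. In siLuc it was at 20.7 CPM against 8.72 and 9.30 CPM, and in siStag3 at 10.7 CPM against 10.2 and 12.7 CPM. These values are of 1 of the 2 IDs, between which counting can split reads, so they are uncertain. A630089N07Rik was at 25.3 and 26.2 CPM in the untreated and siStag3 libraries of Set 3 and at 45.0 CPM in that of siLuc, while all Set 1 libraries held 43.1 to 54.1 CPM. Since each group has 1 Set 3 library, such values rest on single libraries, and the spread behind the test comes only from the Set 1 pairs.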

How the data were processed

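Sequencing of mRNA libraries (KAPA mRNA HyperPrep, per the labels' protocols) gave the raw counts per gene that the authors deposited, as whole numbers for 16636 genes and 9 libraries. The submitters' processing notes name FastQC, Salmon, DESeq2 and GRCm39 without roles; strand setting and annotation are not given in the sources used here, so antisense or overlapping genes cannot be told apart. Column names gave group, set and experiment. The comparison and the gene lists were chosen with earlier results of these data known.

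Counts were fitted with edgeR 4.0.16 in R 4.3.3 (TMM, filterByExpr by group, robust glmQLFit, glmQLFTest) with group and set as additive terms and all 9 libraries. P-values are two-sided and Benjamini-Hochberg adjusted over 14246 genes at 0.05. SE is the absolute log2 fold change over the square root of F. CPM is scaled by TMM factors. A list's counts are to be read against the shares of all genes called higher and lower, given in the text. Differences within a group, for list medians and bins, are of log2 values with a pseudocount.

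GC content and length are those of the longest GENCODE M21 transcript, matched by gene ID for 16604 genes; this build, GRCm38, is not the one in the notes. For correction, each library's median deviation in 20 bins of GC content and of length was removed in turn, over 5 rounds, and entered as an offset. Adjusted p-values after correction are from this edgeR fit.

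Named were Stag3, the 10 largest rises and falls with no overlap between sets and at least 1 log2 CPM, the 5 largest of each after correction, the 2 largest of each per list and 5 interaction genes. List genes whose call was lost without 1 library were then left out, apart from Stag3, after their values were seen. On simulated counts for Set 3 against Set 1 over 14123 genes, 200 genes were changed. Of genes changed by 1 on the log2 scale 99% were recovered, and of those changed by 0.5, 82%. Of 195 calls, 14 were false. With a simulated GC trend, the same in every Set 3 library, over 14104 genes, false calls were 3754 without and 16 with correction. In the data the trend differed between libraries and 42.7% of genes were called, so the simulations give no error rate for these data. Alternatives were other size factors, total count, the DESeq2 1.42.0 Wald test, other filters and covariates, thinning, and each library left out.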

Additional observations from a re-analysis of the deposited data

Results flagged for a closer look

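Among the 6 Set 1 libraries, 3 of 80 values looked at stood far from the rest, with a gap to the nearest that took most of the range; chance flags about 1 in 20. All 3 were in the untreated library of experiment 1. Pmel was at 9.51 CPM there against 7.70 to 8.30 CPM in the others, Pola2 at 93.3 CPM against 80.2 to 84.0 CPM, and Plagl1 at 92.7 CPM against 117 to 126 CPM. The sets did not overlap in any of these genes. Groups of 3 libraries were not looked at in this way.

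The set difference differed between the 3 groups for 6 genes by the interaction term of the edgeR fit. Each group has 1 Set 3 library, so the spread in this fit comes only from the 3 pairs of Set 1 libraries, and the calls rest on single Set 3 libraries assumed to vary alike. The adjusted p was 0.00609 for Gm2026, 0.00609 for Nnt (ENSMUSG00000025453), 0.00609 for Gm15023 and 0.00609 for Gm21985. It was 0.0177 for A630089N07Rik and 0.0181 for Vmn2r53. Gm15023 was at 0 CPM in both siLuc libraries of Set 1 and at 2.52 CPM in the siLuc library of Set 3, while Gm21985 was at 0 CPM in the latter and at 1.62 and 1.90 CPM in the former. Vmn2r53, a vomeronasal receptor gene, was at 27.8, 50.8 and 25.2 CPM in the untreated, siLuc and siStag3 libraries of Set 3 and at 58.3 to 79.5 CPM in Set 1. The cause was not tested.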

How the results depend on the processing

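No paired analysis was possible because the replicate numbers stand only in the sample titles, not in the count table; a fit with the experiment number as a factor was run in its place. The count of 6076 genes became 699 (333 higher, 366 lower) in that fit, where 657 of the 6076 passed again and the set term rests on the siLuc library of Set 3, the only one whose experiment number also occurs in Set 1; of 76 genes listed for the text, 28 no longer passed there and 0 changed sign. It was 348 when a log2 fold change of 1 in size was also asked, and 4162 to 6355 when 1 library was left out. Other size factors, filters, tests and covariates gave 4770 to 6212. The corrected count of 6212 was 4622 to 5545 without 1 Set 3 library. The interaction count of 6 was 46 after correction and 5 at a mean of at least 50 counts. The correlation with GC content of 0.471 was 0.155 within siLuc and 0.322 to 0.547 when 1 library was left out. That with length of -0.236 was -0.0928 within siLuc, -0.374 for genes whose mean reached 5 log2 CPM and -0.270 to -0.193 when 1 library was left out. Atp6v1h, at -0.25 as counted, was 0.0805 with GC correction and 0.0682 with GC and length correction, and there 0.0733 without the untreated and 0.191 without the siLuc library of Set 3. Klf2 was -0.0275 after correction without the siLuc library of Set 3. The corrected leave-out fits and the values within groups were chosen after seeing the data. Both correlations were larger for genes of higher level. Except where fewer genes or libraries entered, the cause of these moves was not tested.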
